A study of Homo sapiens with 6 samples.

Results

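The 10 genes described here build caveolae and neighbouring lipid raft domains of the cell surface, and they were chosen by symbol. They are CAV1, CAV2, PTRF (now CAVIN1), SDPR (CAVIN2), PRKCDBP (CAVIN3), EHD2, PACSIN2, DNM2, FLOT1 and FLOT2, and all 10 were found among the 40205 gene symbols of the count table. RNA-seq was run on 3 control samples and 3 treated samples, all of cells labelled HepG2, a human liver cancer line. The control group is labelled control, and no vehicle is named for it. The CLs-treated group was exposed to cationic liposomes (CLs) for 24 h, at a dose that the labels give as 120 μM and the study elsewhere gives in μg/ml. CLs are vesicles of the positively charged lipid DOTAP, cholesterol and a PEG-coupled lipid. Both groups were grown in DMEM with serum, and the labels name no separate cultures or days, so p-values measure only the spread between these samples, which may be technical.

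Caveolae are small flask-shaped pits of the plasma membrane, rich in cholesterol and sphingolipids. Caveolins insert into the inner leaflet as a hairpin, and cavins assemble on them as a peripheral coat. EHD2 is an ATPase that holds the neck of the pit at the membrane, PACSIN2 is a membrane-bending F-BAR protein, and DNM2 (dynamin 2) is the GTPase that cuts vesicles from the surface. Flotillins form separate raft domains that have been tied to clathrin-independent uptake.

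Library totals ran from 11418527 to 13998946 gene counts. Of 18 hepatocyte markers, 17 had at most 10 counts in every library other than CLs-1, and FOXA1 was the exception. ALB had 0 counts outside CLs-1, where it had 8, and TTR, APOH and APOC3 had 0 in all 6 libraries. The labelled cell type was therefore not borne out by its defining markers, and HepG2 is used below only as the label. CLs-1 stood apart, with 482 summed counts over 6 steroidogenic markers against 11 to 32 in the other libraries, and 777 against 154 to 271 over 6 blood markers. Of 7 stromal markers, 3 (COL1A1, COL3A1 and PDGFRB) were well above the filter on low counts in every library. The other 4 had at most 10 counts in each library other than CLs-1. The list summed to 730.0 to 1098 CPM in the control group and 807.7 to 954.1 in the CLs-treated group. Most of this was COL3A1, at 647.5 to 974.0 CPM in the control group and 671.3 to 822.1 in the CLs-treated group. Within that list CLs-1 also stood apart, with 1044 counts of COL1A2 and 58 of THY1 against at most 2 and 1 in the other libraries, and with 171.1 CPM of COL1A1 against 66.3 to 112.5. Endothelial markers, which matter here because endothelium is rich in caveolae, summed to between 1 and 43 counts, and KDR and CLDN5 were at 0. The part of these RNAs in the results below was not tested, and the members' values are therefore also given without CLs-1.

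Short stretches of promoter are shown for the caveolins and SDPR, whose groups did not overlap, and for EHD2, whose groups did. Of the 10 genes, 8 had an entry in the RefSeq promoter table (GRCh38.p14), and PTRF and PRKCDBP had none. The 250 bases before the first listed start of each were searched on both strands for the GC box GGGCGG and for GGAATG, the core letters bound by TEAD factors. Each stretch is written 5′ to 3′ on the gene's strand, with 1 match in capitals, directly or as its reverse complement.

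CAV1: ccctcccagccaCCGCCCccctccagcgcc
CAV2: cgaggcgaggggGGGCGGggccgggcgcta
SDPR: ctttaagagcagctGGAATGcagttcccct
EHD2: gggcgcctcgtcCCGCCCctccctcctgtc

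The CAV1 stretch lies at chr7:116524933-116524962 and the CAV2 stretch at chr7:116499677-116499706, both on the plus strand. The SDPR stretch lies at chr2:191847089-191847118 on the minus strand and the EHD2 stretch at chr19:47713353-47713382 on the plus strand. The windows of CAV1 and CAV2 held 3 and 6 GC boxes, that of SDPR held none, and that of EHD2 held 1. The most, 8, were in the window of FLOT1, whose groups overlapped. A GC box was found in 6 of the 8 genes' windows, and in 42.6% of the 35116 windows of the whole table. GGAATG was found in SDPR, 16 bases before the start, and in PACSIN2, and in 11.9% of all windows. A CArG box, the motif of SRF, was found in none of the 8 windows and in 1.16% of all. These are matches of letters only.

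No member was called, a call being an adjusted p-value under 0.05 in edgeR's quasi-likelihood test together with a fold above 1.5 or below 0.67. Over all 15047 genes tested, 13 genes or 0.0864% were called. The largest differences among the members were in the RNA of 4 caveolin and cavin genes. The remaining cavin, PRKCDBP, had a log2 fold change of -0.09 and overlapping groups. At an unadjusted p-value under 0.05, 4 of the 10 members were lower in the CLs-treated group, namely CAV1, CAV2, PTRF and SDPR, beside 3.62% of all genes tested, and 0 of the 10 were higher, beside 2.19%. Without CLs-1 the number lower was also 4, beside 5.47% of all genes tested in that fit. In the same 4 members each CLs-treated sample lay below each control sample, which was so in 6.18% of all genes tested. The members, and the related lists below, were chosen with earlier results of these data known, so such shares are no independent test. All 10 members were tested, and all had a negative log2 fold change, beside 7215 of all 15047 genes tested. In 6 of the 10 it was small, between -0.13 and -0.03. The median of the members was -0.11, against 0.01 over all genes tested. DESeq2's Wald test on the same genes called 107 genes, none of them a member. In a bulk sample, fewer cells that express a gene and less of its RNA per cell cannot be told apart.

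CAV1, the main caveolin and the protein without which most cells form no caveolae, had 2539, 2304 and 2456 counts in the control samples, in the order of their numbers, against 2165, 1697 and 1945 in the CLs-treated samples. As CPM, which are relative to the TMM-scaled library total, this was 220.5, 198.9 and 210.6 against 149.9, 146.7 and 170.4. The highest CLs-treated sample, CLs-3, was thus below the lowest control sample. The means of the control and CLs-treated groups were 210.0 ± 10.8 and 155.7 ± 12.9 CPM (SD, n = 3 each). For CAV1 the log2 fold change was -0.43, with a standard error (SE) of 0.13, a fold of 0.741 with a 95% confidence interval from 0.610 to 0.901. After Benjamini-Hochberg adjustment the edgeR p-value was 0.392. Without CLs-1 the log2 fold change of CAV1 was -0.41.

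CAV2, the partner of CAV1 in hetero-oligomers, lies beside CAV1 on chromosome 7. It had 1050, 1155 and 1230 counts in the control samples and 1149, 906 and 794 in the CLs-treated samples, or 91.2, 99.7 and 105.5 CPM against 79.5, 78.3 and 69.6 CPM. The raw count of CLs-1 lay within the control range, and after scaling for that deeper library it lay below it. The log2 fold change of CAV2 was -0.38 (SE 0.13, adjusted p = 0.578 from edgeR), a fold of 0.767 with an interval from 0.629 to 0.936. Without CLs-1 its log2 fold change was -0.42.

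PTRF, the cavin that every coat complex needs, showed the tightest separation of the groups. Its counts were 5889, 5804 and 5965 in the control samples and 4956, 4167 and 4145 in the CLs-treated samples. The CPM values were 511.4, 501.2 and 511.5 against 343.1, 360.2 and 363.2, with no overlap. The means were 508.0 ± 5.93 and 355.5 ± 10.8 CPM (SD, n = 3 in each group), and the log2 fold change was -0.52 (SE 0.12, adjusted p = 0.245 from edgeR). The fold of PTRF was 0.700, with a 95% confidence interval from 0.580 to 0.844, and so it missed both parts of the criteria. In DESeq2's Wald test its adjusted p-value was 0.0128, and the fold still kept it from being called. Its log2 fold change was -0.49 without CLs-1.

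SDPR, a cavin that binds phosphatidylserine and shapes the membrane of caveolae, was read far more thinly. It had 17, 30 and 39 counts in the control samples and 8, 4 and 11 counts in the CLs-treated samples. In CPM this was 1.48, 2.59 and 3.34 against 0.554, 0.346 and 0.964. The groups did not overlap, and CLs-2, at 4 counts, was close to the floor of 3 counts taken as the limit of detection. The log2 fold change of SDPR was -1.98 (SE 0.45, adjusted p = 0.203 from edgeR), a fold of 0.253 with an interval on the log2 scale from -2.97 to -0.999. It was called when no filter on low counts was used, with an adjusted p-value of 0.0124 from edgeR. Without CLs-1 its log2 fold change was -1.90, and in the GENCODE annotation an antisense gene covers 7.22% of its exon bases, where reads cannot be told apart if strand was not used in the counting.

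**Figure D1:**
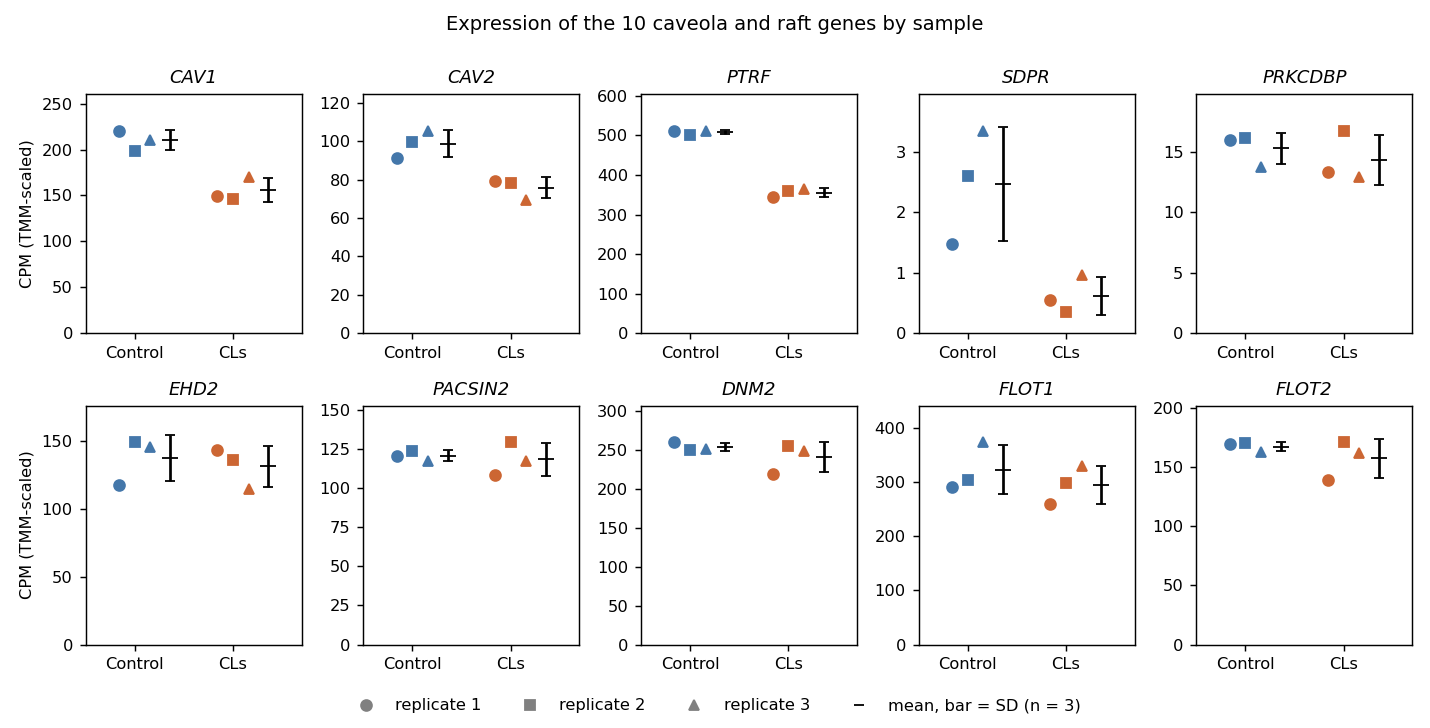
Each panel plots the CPM (TMM-scaled, linear axis from 0) of 1 gene in the 3 control and 3 CLs-treated samples, with symbols for the replicate number and bars for the mean and SD (n = 3). The CLs-treated samples of CAV1, CAV2, PTRF and SDPR lie below all control samples, and the groups of the other 6 genes overlap.

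The remaining 6 members had overlapping groups, log2 fold changes between -0.13 and -0.03 and adjusted p-values of 0.998 or more. PRKCDBP, the cavin first found as a binding protein of protein kinase C delta, had 184, 187 and 161 counts in the control samples and 193, 194 and 148 in the CLs-treated samples. Its log2 fold change was -0.09 (SE 0.18, adjusted p = 0.998 from edgeR), and -0.043 without CLs-1. In the GENCODE annotation 33.3% of its exon bases are covered by a transcript of the opposite strand. The strand setting of the counting is not given in the sources used here, so the reads of PRKCDBP are uncertain. Other genes also cover 5.77% of the exon bases of DNM2, 3.40% of those of PACSIN2 (on the same strand) and 1.10% of those of CAV2.

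EHD2, at the neck of caveolae, had 1355, 1727 and 1694 counts in the control samples and 2069, 1570 and 1307 in the CLs-treated samples. After scaling, the lowest value, 114.5 CPM, was that of CLs-3, and CLs-1, at 143.2 CPM, lay within the control range of 117.7 to 149.1 CPM. The log2 fold change of EHD2 was -0.07 (SE 0.15), with a fold interval from 0.764 to 1.19. It was -0.14 without CLs-1 and turned to 0.022 without CLs-3. PACSIN2 had 121.0, 124.2 and 117.3 CPM in the control samples and 108.3, 129.6 and 117.4 CPM in the CLs-treated samples. Its log2 fold change was -0.03 (SE 0.13), the smallest of the 10 members, and it turned to 0.032 without CLs-1.

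DNM2 had 260.7, 250.8 and 251.1 CPM in the control samples and 219.0, 255.8 and 249.2 CPM in the CLs-treated samples, and CLs-1 was the lowest of the 6. Its log2 fold change was -0.08 (SE 0.13), and -0.0099 without CLs-1. FLOT1 spread widely in the control group, with 291.3, 304.2 and 374.8 CPM, against 259.6, 298.5 and 329.8 CPM in the CLs-treated group, and its log2 fold change was -0.13 (SE 0.15), and -0.042 without CLs-1. FLOT2 had 169.2, 169.8 and 162.4 CPM in the control samples and 138.7, 171.0 and 161.9 CPM in the CLs-treated samples, a log2 fold change of -0.09 (SE 0.13), and -0.0061 without CLs-1. CLs-1 was the lowest library for PACSIN2, DNM2, FLOT1 and FLOT2. The 95% intervals of these 6 members together ran from a fold of 0.712 to a fold of 1.23, inside the bounds of 0.67 and 1.5.

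**Figure D2:**
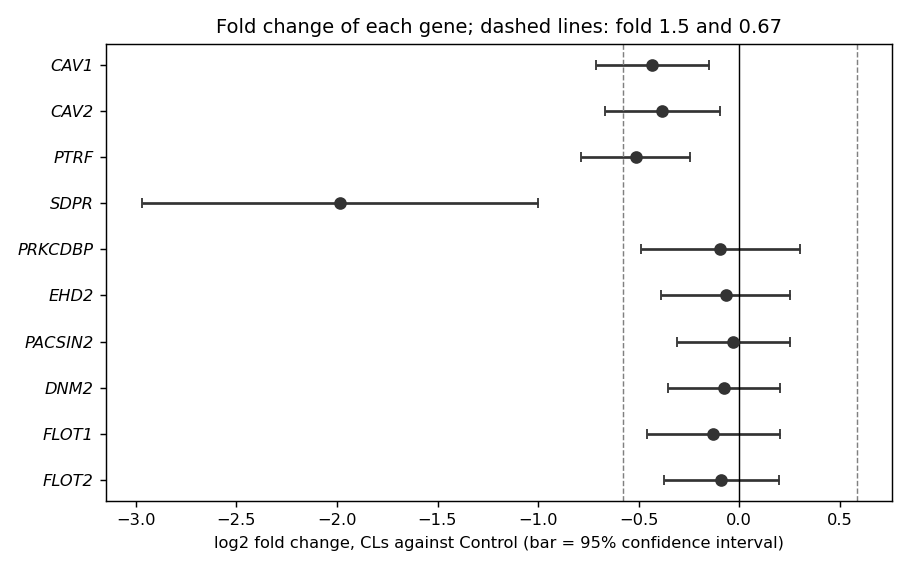
The x axis gives the log2 fold change of CLs against control for each gene from edgeR, with its 95% confidence interval as a bar, and the dashed lines mark folds of 1.5 and 0.67. The intervals of CAV1, CAV2, PTRF and SDPR lie below 0, that of SDPR is the widest, and those of the other 6 genes include 0.

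Since a ratio of counts within a sample does not depend on library scaling, 5 pairs of members were compared in that way, with two-sided exact permutation tests over the 6 samples, which cannot go below p = 0.10. The ratio of CAV1 to CAV2 counts was 2.42, 1.99 and 2.00 in the control samples and 1.88, 1.87 and 2.45 in the CLs-treated samples, and the groups overlapped (exact permutation p = 0.60, 0.75 after adjustment over the 5 pairs). Control-1 and CLs-3 were the high samples. The ratio of CAV1 to PTRF was 0.431, 0.397 and 0.412 against 0.437, 0.407 and 0.469 (exact permutation p = 0.30, adjusted 0.50). Its difference on the log2 scale was 0.08, beside an SD of 0.06 in the control group and 0.10 in the CLs-treated group.

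The ratio of CAV1 to FLOT1 was 0.757, 0.654 and 0.562 in the control samples and 0.577, 0.491 and 0.517 in the CLs-treated samples. The difference was -0.31 on the log2 scale (exact permutation p = 0.20, adjusted 0.50), and CLs-1 lay above Control-3. For FLOT1 to FLOT2 the difference was -0.03 (exact permutation p = 0.90, adjusted 0.90), and for PACSIN2 to DNM2 it was 0.05 (exact permutation p = 0.30, adjusted 0.50). A sixth ratio was chosen after its values were seen and was not tested. The counts of PTRF were 32.0, 31.0 and 37.0 times those of PRKCDBP in the control samples and 25.7, 21.5 and 28.0 times in the CLs-treated samples, with no overlap between the groups.

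**Figure D3:**
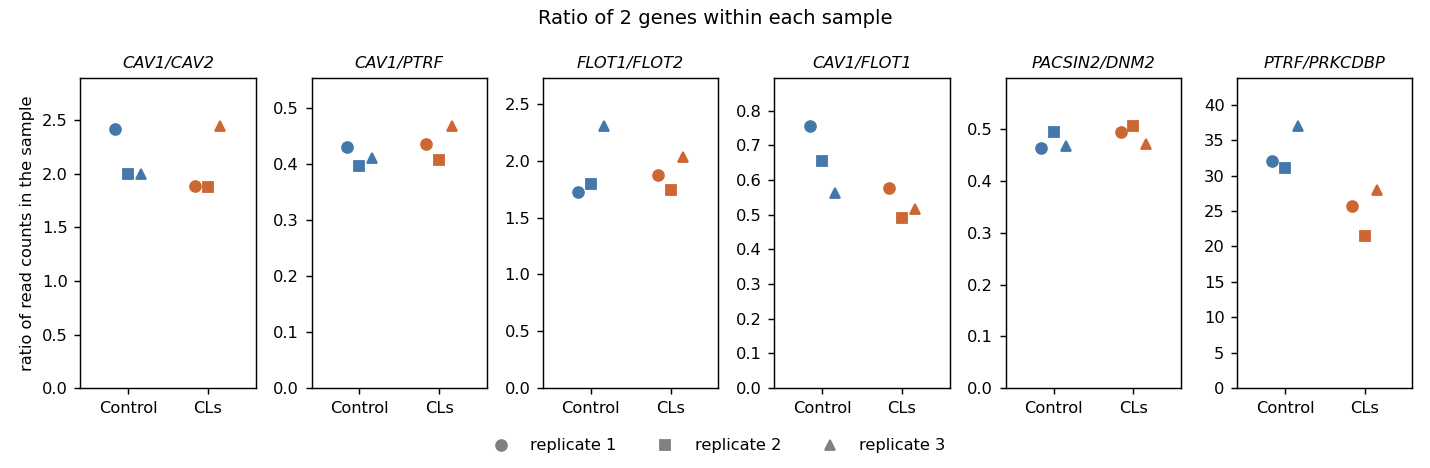
Each panel plots the ratio of the read counts of 2 genes in the same sample (linear axis from 0) for the 3 control and 3 CLs-treated samples, with symbols for the replicate number. The groups overlap in the 5 pairs tested, and in PTRF/PRKCDBP, chosen afterwards, the CLs-treated samples lie between 21.5 and 28.0 and the control samples between 31.0 and 37.0.

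Levels can be compared between genes only per length, here CPM per kilobase of merged GENCODE v29 exons, which may differ from the annotation used for counting. In the control group PTRF was highest, at 132.7 ± 1.55 CPM per kilobase (SD, n = 3), followed by FLOT1 at 101.5 ± 14.1. CAV1 at 51.4 ± 2.64 and FLOT2 at 50.1 ± 1.23 did not differ beyond their spread. EHD2 followed at 35.0 ± 4.37, PACSIN2 at 26.5 ± 0.754, DNM2 at 18.9 ± 0.418 and CAV2 at 14.3 ± 1.04. PRKCDBP at 9.16 ± 0.781 and SDPR at 0.765 ± 0.291 were the lowest. In the CLs-treated group PTRF at 92.9 ± 2.82 and FLOT1 at 92.9 ± 11.03 were level with each other. Per kilobase of the longest coding transcript, FLOT1 stood above PTRF in the control group, at 169.2 against 132.7, and DNM2 moved from the seventh place to the third, so these places depend on the length used.

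The genes nearest to CAV1 in profile were sought among all genes tested, other than the members, as the smallest root mean square difference of log2(CPM + 1) values centred on their mean over the 6 samples. They were VCL, GDF11 and ARID5A, with differences of 0.059, 0.060 and 0.061. VCL (vinculin, a linker of integrin adhesions to actin) had 347.7, 327.9 and 361.4 CPM in the control samples and 240.5, 223.3 and 262.3 CPM in the CLs-treated samples. GDF11 had a mean of 44.6 CPM in the control group and 34.3 CPM in the CLs-treated group. ARID5A had at most 32 counts in a library, so the added 1 CPM shrinks its differences between samples. The edgeR log2 fold change of ARID5A was -0.67 (SE 0.29), against -0.43 for CAV1. Since these genes were picked for a profile like that of CAV1, their lower values in the CLs-treated group follow from the choice and were not tested.

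Of a list of 12 paralogues and partners of caveolar proteins, 8 had enough reads to be tested, and their median log2 fold change was -0.48, against 0.01 over all genes tested. None was called by edgeR or DESeq2. At an unadjusted p-value under 0.05, 5 of the 8 were lower, beside the 3.62% of all genes, and none was higher. Without CLs-1 it was also 5, beside 5.47%, with a median of -0.48. The remaining 3 were PACSIN3, SRC and DNM1. DNM3, a dynamin, had the lowest log2 fold change, -0.80 (SE 0.25, adjusted p = 0.459), on 35 to 82 counts, and PACSIN3 the highest, 0.04. The other 4 genes lower at that level were EHD1, EHD4, ROR1, a receptor that binds caveolar coat proteins, and FLNA (filamin A), which links CAV1 to actin, with log2 fold changes of -0.53, -0.34, -0.70 and -0.48. CAV3, the caveolin of muscle, had 0 counts in all 6 libraries, which allows at most 0.207 to 0.262 CPM (3 counts, for counting error only). MURC, the muscle cavin, had 5 to 14 counts and was not tested.

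Of 20 genes of lipid raft proteins, 19 were tested, with a median log2 fold change of 0.05, and none was called by edgeR. FYN, a raft-anchored Src-family kinase, was lowest at -0.65 (adjusted p = 0.759), and at -0.30 without Control-3, which had 177 of its counts against 74 to 108 elsewhere. MAL2 was highest at 0.47, with 1846 counts in CLs-1 and 659 to 1034 in the other libraries, and 0.18 without CLs-1. EGFR, named after its values were seen, was the other gene lower at an unadjusted p-value under 0.05. This made 2 of the 19, or 10.5%, beside 3.62% of all genes tested. EGFR had 7624, 9843 and 11195 counts in the control samples and 7584, 5877 and 6552 in the CLs-treated samples, a log2 fold change of -0.62 (SE 0.16, adjusted p = 0.284 from edgeR). DESeq2 called it with an adjusted p-value of 0.0281, among 107 called of all 15047 genes tested. Without CLs-1 the log2 fold change of EGFR was -0.61.

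The 30 genes of clathrin-mediated endocytosis were all tested, and their median log2 fold change was -0.05. DAB2, a cargo adaptor, was the lowest at -0.50 (adjusted p = 0.296), and FCHO2 the highest at 0.21, which turned to -0.058 without CLs-1. DAB2 was the only 1 of the 30 lower at an unadjusted p-value under 0.05, or 3.33%, beside 3.62% of all genes, and none was called by edgeR or DESeq2. Without CLs-1 there were 3 such genes, beside 5.47% of all. The groups did not overlap, with CLs lower, in 3 of the 30, beside 6.18% of all genes. The 16 genes of other clathrin-independent routes, including macropinocytosis, had a median of -0.07. SH3GL2 (endophilin A1) was higher, at 0.49 (SE 0.15, adjusted p = 0.459), with 289, 294 and 350 counts against 476, 457 and 466, and 0.58 without CLs-1. BAIAP2, an actin-linked membrane-bending protein, was lower, at -0.51 (adjusted p = 0.405) and -0.42 without CLs-1. Of the 16 genes 1 was lower and 1 higher at an unadjusted p-value under 0.05, beside 3.62% and 2.19% of all genes, and none of the 16 was called by edgeR or DESeq2.

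**Figure D4:**
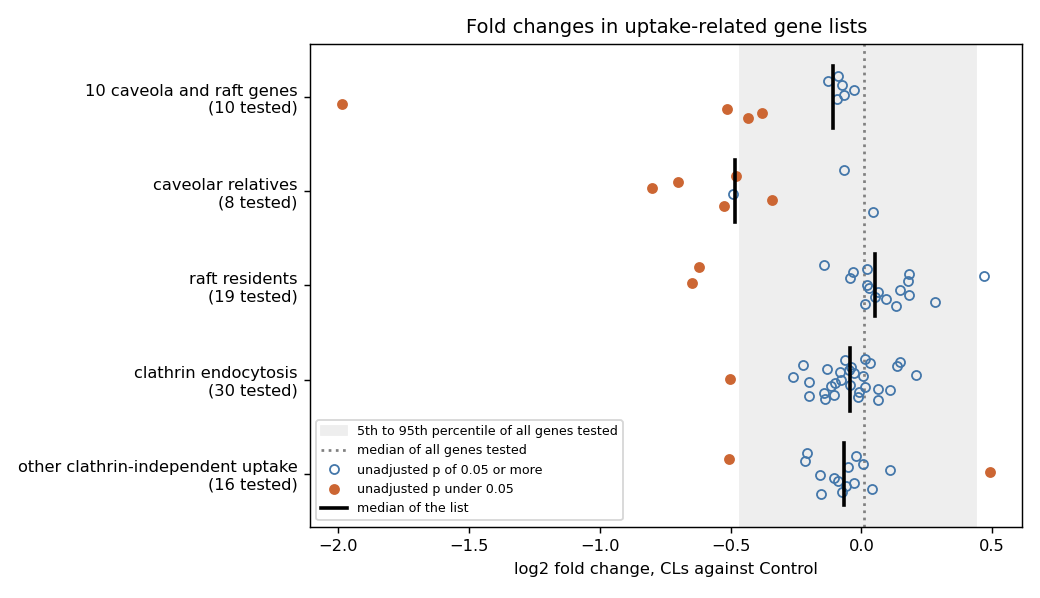
The x axis gives the log2 fold change of CLs against control for each tested gene of 5 lists, with filled points for an unadjusted p-value under 0.05, a black line for the list's median, and a grey band for the 5th to 95th percentile of all genes tested. The caveolar relatives have a median of -0.48, and the medians of the raft, clathrin and other clathrin-independent lists lie between -0.07 and 0.05.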

How the data were processed

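Per the labels, total RNA was extracted with Trizol, and single-end Ion Total RNA-Seq libraries were mixed and sequenced on an Ion Proton chip. Reads were mapped by the authors using MapSplice, and the submitters' processing notes name HTSeq 0.6.1 and hg19 (GRCh37). The deposited values are counts, the whole number of reads per gene symbol, without normalization. Strand and multi-mapping settings of the counting are not given in the sources used here.

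Genes with too few reads were removed with filterByExpr (15047 left). Counts were scaled by TMM and compared with edgeR 4.0.16 in R 4.3.3 (quasi-likelihood test, group only) with Benjamini-Hochberg adjustment over these genes. The study's own tool, EBSeq, was not used. Standard errors were derived from the F statistic. CPM are relative to TMM-scaled totals. DESeq2 1.42.0, other scalings and filters, no fold criterion, the replicate block and the omission of single samples were alternatives. Only the edgeR fit was tried on simulated counts. Exact permutation tests used scipy 1.17.1, with 0.5 added to counts in ratios.

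The members and lists were chosen with earlier results of these data known. Named genes are all members, the highest and lowest gene of each list, the 3 genes nearest to CAV1 and marker genes. Others are said to be named after their values were seen, as are EHD1, EHD4, ROR1, FLNA, SRC, DNM1, CAV3 and MURC.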

Additional observations from a re-analysis of the deposited data

How the results depend on the processing

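Among the 10 members, SDPR was the 1 gene called with no filter on low counts, with or without the fold criterion. PTRF was the 1 called by DESeq2 with no fold criterion, an alternative chosen after seeing the data. How many of all genes DESeq2 or the unfiltered fit called with no fold criterion was not counted, so these member calls have no background share. The other alternatives called 0 members. At an unadjusted p-value under 0.05, 3 members in place of 4 were lower without Control-2 or without CLs-3, beside 2.64% and 3.01% of all genes. The number of all genes called moved from 13 to 107 with DESeq2, 171 with no filter, 8 with library totals only and 68 with the replicate block, and lay between 3 and 7 when 1 sample was left out. Of the genes in the related lists, EGFR was the 1 called, by DESeq2 and with no filter. The causes were not tested, and leaving out 1 sample changes both the number of samples and which sample is absent.

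The log2 fold changes of CAV1, CAV2, PTRF and SDPR kept their sign in all 12 fits, ranging from -0.50 to -0.39, -0.44 to -0.32, -0.53 to -0.49 and -2.41 to -1.70. When 1 sample was left out, EHD2 ranged from -0.17 to 0.022, PACSIN2 from -0.098 to 0.032, PACSIN3 from -0.093 to 0.20 and FCHO2 from -0.058 to 0.36. The log2 ratio difference then ranged from -0.18 to 0.040 for CAV1/CAV2 and from -0.11 to 0.10 for FLOT1/FLOT2, turning positive for CAV1/CAV2 without Control-1, CLs-1 or CLs-2 and for FLOT1/FLOT2 without Control-3 or CLs-2. The other 3 pairs kept their sign.

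The replicate numbers were not taken to pair the samples, since the study names no block. The correlations of deviations from the group means between control and CLs-treated samples were 0.111, 0.0987 and 0.305 for numbers 1, 2 and 3. Between unlike numbers they ran from -0.201 to 0.0783. All 6 samples correlated best with their own number, a hint from the data and not the design. With the replicate block no member passed, and the adjusted p-value of SDPR was 0.0615. With 4 to 39 counts per library, depth limits the precision of SDPR.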
